A study of Mus musculus with 6 samples.

Results

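The genes studied here are the major urinary protein (Mup) genes of mouse chromosome 4, represented on the arrays by every non-control probe whose mm9 start lies between 59900000 and 62000000. These 194 probes formed 24 regions, a region being a run of at least 3 probes with starts at most 1000 bp apart, out of 21987 regions over the whole array. The stretch was chosen by its low log2 ratios in earlier results of these data, so its low level is given as a description and only the difference between the diet groups is tested. The deposited files pair no probe with a gene and no mm9 annotation was used, so the regions are numbered 1 to 24 along the chromosome and none is assigned to Mup3, Mup4, Mup5, Mup20 or Mup21. Regions of neighbouring genes within these coordinates could thus not be told from those of Mup genes. For the same reason the liver and fat marker genes could not be looked up, and the tissue label was not checked against markers.

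Major urinary proteins are small lipocalins that carry hydrophobic ligands. Most are made in the liver, secreted into the blood, filtered by the kidney and excreted in urine, where they bind and slowly release pheromones used in scent marking. Mup20, known as darcin, is itself a male pheromone protein, while Mup4 and Mup5 are known for expression in lacrimal, nasal or salivary glands. The genes lie in a tandem array of very similar copies, and liver transcription of many of them follows the pulses of growth hormone through STAT5.

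The DNA came from mouse offspring aged 32 weeks, 3 born to dams on a chromium-restricted diet and 3 born to dams on a control diet, with 1 array a sample. Methylated DNA was enriched by immunoprecipitation, labelled with Cy5 and hybridised together with Cy3-labelled input DNA of the same sample, with no dye swap. The tissue label is liver, whereas the extraction label names fat, and strain, sex, litter and the time of the diets are not given in the sources used here. Since no label says that the offspring were of different litters, a p-value here reflects no more than the variation among these 6 samples. Unless a channel or a probe count is named, values are log2 ratios of immunoprecipitated over input signal, centred on each array's median probe, so that 0 is the level of the median probe of that array, and values of a group are given in the order of its replicates 1, 2 and 3. The number of arrays limits the precision. Same-numbered arrays of the 2 groups had the same scan date in the scanner headers and are said here to share a scan. The slide position, as read from the barcode in the headers, was 2 for each chromium-restricted array and 4 for each control. Position and group can thus not be told apart.

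In the RefSeq table of assembly GRCm38, 22 protein-coding Mup genes followed each other on chromosome 4, beginning with Mup4, whose neighbour is Slc46a2, and ending with Mup21, whose neighbour is Zfp37. A further 22 Mup entries named as pseudogenes lay among them. Promoter sequence was given for 14 of the 22 genes, namely Mup4, Mup6, Mup7, Mup2, Mup9, Mup10, Mup11, Mup14, Mup15, Mup17, Mup18, Mup19, Mup3 and Mup21. Mup5 and Mup20 have no entry. The 250 bases before the start of 5 of these genes are printed to show how similar the copies are and how few sites of CpG methylation they offer. They are read 5′ to 3′ on the gene's strand, which is the minus strand for all 5, from RefSeq on GRCm38.p6, and capitals mark each CG. Mup4 (chr4:59960668-59960917), Mup3 (chr4:62087318-62087567) and Mup21 (chr4:62150842-62151091) are the named genes that have an entry. Mup2 (chr4:60139857-60140106) and Mup15 (chr4:61439705-61439954) stand for the copies between them. These coordinates are of another build than those of the probes, and whether a probe lies in these sequences was not analysed here.
Mup4: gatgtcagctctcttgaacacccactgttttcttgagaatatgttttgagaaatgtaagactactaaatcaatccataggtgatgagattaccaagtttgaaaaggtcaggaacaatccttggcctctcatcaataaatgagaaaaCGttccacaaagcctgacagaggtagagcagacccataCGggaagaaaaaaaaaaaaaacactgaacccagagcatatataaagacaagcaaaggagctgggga
Mup2: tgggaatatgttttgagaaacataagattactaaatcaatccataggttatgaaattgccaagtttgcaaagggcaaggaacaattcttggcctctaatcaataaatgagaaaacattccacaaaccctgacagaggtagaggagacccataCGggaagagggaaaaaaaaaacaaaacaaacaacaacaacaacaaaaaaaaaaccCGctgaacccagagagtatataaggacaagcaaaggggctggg
Mup15: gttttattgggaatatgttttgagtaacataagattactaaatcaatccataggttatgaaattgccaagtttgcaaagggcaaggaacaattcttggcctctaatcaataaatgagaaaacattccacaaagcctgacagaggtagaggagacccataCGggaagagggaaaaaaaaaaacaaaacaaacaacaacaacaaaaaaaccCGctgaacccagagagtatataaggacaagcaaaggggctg
Mup3: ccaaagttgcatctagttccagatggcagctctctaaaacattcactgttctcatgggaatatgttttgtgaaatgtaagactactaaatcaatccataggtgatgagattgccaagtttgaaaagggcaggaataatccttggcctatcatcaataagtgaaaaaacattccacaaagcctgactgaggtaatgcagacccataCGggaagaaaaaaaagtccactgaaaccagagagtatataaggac
Mup21: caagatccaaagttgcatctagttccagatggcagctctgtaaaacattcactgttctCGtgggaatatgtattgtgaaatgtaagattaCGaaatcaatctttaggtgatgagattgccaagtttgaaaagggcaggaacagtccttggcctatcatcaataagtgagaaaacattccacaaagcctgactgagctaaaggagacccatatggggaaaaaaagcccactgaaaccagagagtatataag

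The 14 promoters held between 0 and 2 CG dinucleotides in 250 bases, with a median of 2, against a median of 6 over all 32851 mouse promoters in the table. A count of at most 2 was not rare in the genome, since 29.0% of all promoters had it. Their GC content was 34.8% to 40.4% with a median of 38.0%, against 52.4% over all promoters. Over the 91 pairs of Mup promoters the identity of the aligned bases was 82.9% to 100% with a median of 94.2%, and the median aligned length was 218 bases. Mup15 and Mup17 were identical over 247 aligned bases. Mup7 and Mup21 were the least alike at 82.86%, over 175 aligned bases only, and Mup14 and Mup21 were close to that at 82.91%. The shortest alignment, of 113 bases, was that of Mup7 and Mup9. Mup3 and Mup21, at the far end of the gene order, shared 93.9% of their aligned bases with each other but 88.6% and 85.7% with Mup4 at the other end.

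Motifs were searched on both strands of the 250-base windows. The TATA-box letters TATATAA were found in 11 of the 14 Mup promoters and in 3.04% of all promoters. The windows of Mup7, Mup11 and Mup14, where they were not found, end before the place at which the other copies hold them. The count thus does not show that these genes lack them. The stretch AGACCCATACGGGAAGA was picked after the sequences had been seen, as the longest of those with a CG that most Mup promoters hold. It was found in 10 of the 14 and in no promoter of any other gene, which makes 0.0304% of all promoters. The window of Mup7 ends before the place of this stretch as well. The STAT-type palindrome TTCNNNGAA was found in 0 of the 14 windows and in 7.02% of all promoters. None of these motifs contains another. The matches describe letters in the window and show neither binding nor methylation.

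On the arrays, most of the 24 regions of the stretch had low immunoprecipitated relative to input signal. The mean log2 ratio over the 6 arrays was below -2 in 17 of the 24 regions, a level reached by 1.57% of all regions, and below -2 on every array in 13, against 1.11% of all. The median region stood at -2.36, against -0.11 over all regions of the array. Each of the 24 regions held 6 to 9 probes and spanned 1374 to 1796 bp. From start to start they were a median of 77.4 kb apart (33.3 to 219 kb), and 9 of the 23 gaps measured between 75 and 85 kb. All regions from 3 to 18 had a mean below -2, although the DNA between these short regions was not measured, and region 22 was low again at -2.24. Regions 2, 19, 20 and 21 were intermediate, with means of -1.24, -1.49, -0.90 and -1.14. Only regions 1, 23 and 24, at the edges, lay above 0, and whether they belong to Mup genes was not determined. Without these 3 the median of the other 21 regions was -2.56.

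The level differed between processing settings. After normexp background correction the window's mean rose from -2.03 to -0.94. In that setting 0 of the 24 regions lay below -2, against 0.164% of all regions. By the values of the authors' deposited table the mean was -1.54, and 6 regions lay below -2, against 0.810% of all regions. With only the probes well above background in both channels the mean was -1.02. There 1 of 22 regions lay below -2, against 0.363% of all regions. Each of these shares over all regions was below the 1.57% of the setting used here. As to the place of the stretch among all regions, 1.07% of them lay below the window's median in the setting used here, 1.26% after normexp, 1.04% in the authors' table and 2.01% among probes well above background.

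**Figure D1:**
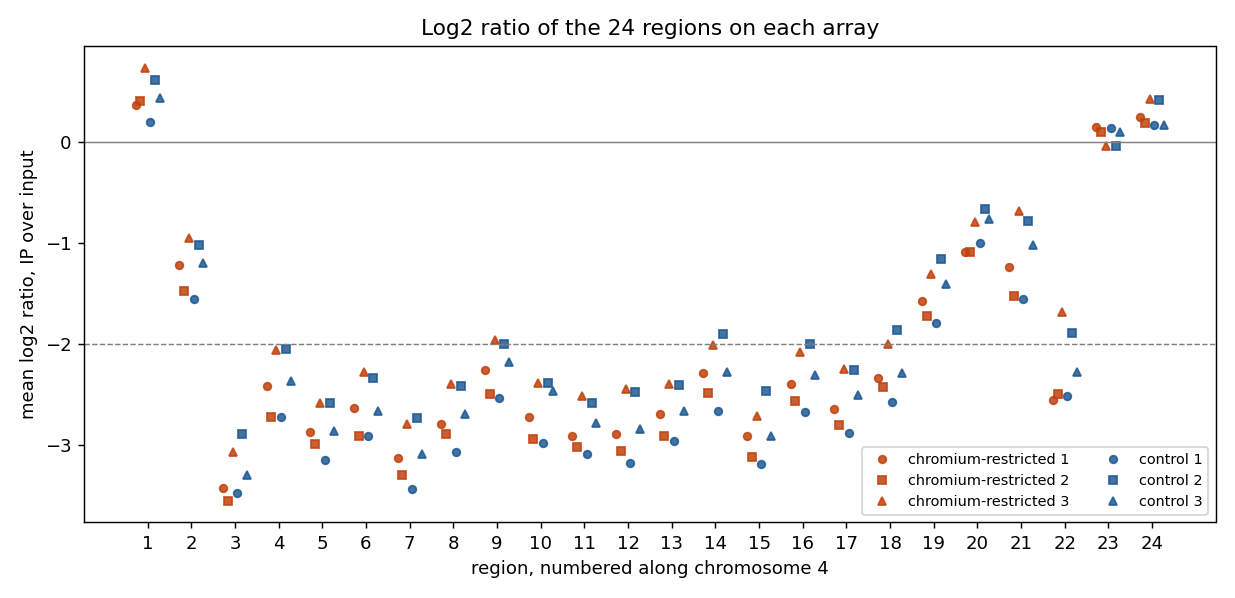
Mean log2 ratio of immunoprecipitated over input signal (vertical axis) of the 24 regions in order along chromosome 4 (horizontal axis), with 1 point per array, orange for chromium-restricted and blue for control. The dashed line marks -2; regions 3 to 18 lie near or below it on all 6 arrays, the edge regions 1, 23 and 24 lie near 0 or above, and the colours overlap in every region.

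Region 3 (chr4:60015121-60016916, 9 probes) was the lowest of the stretch. Its log2 ratio was -3.43, -3.55 and -3.07 on the chromium-restricted arrays and -3.48, -2.89 and -3.30 on the control arrays. Control array 2 gave the highest value and chromium-restricted array 2 the lowest, with the groups overlapping. Its probes ran from -5.16 to -0.78, so all 9 were below the median probe. For 3 of them, the one at -5.16 included, the immunoprecipitated signal was not well above background on any array. The ratios of those 3 carry only a bound. Region 7 (chr4:60434398-60436025, 8 probes) followed, at -3.13, -3.30 and -2.79 on the chromium-restricted arrays and -3.43, -2.74 and -3.09 on the control arrays. Here control array 1 was lowest and control array 2 highest, on either side of all chromium-restricted arrays. Region 15 (chr4:61180092-61181719, 8 probes) had -2.91, -3.12 and -2.72 in the chromium-restricted group and -3.19, -2.47 and -2.91 in the control group. The same 2 control arrays formed its extremes. In regions 7 and 15 the immunoprecipitated signal was not well above background on any array for 4 of the 8 probes each.

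At the other end of the scale, region 1 (chr4:59927438-59929067, 8 probes) was the highest. Its log2 ratio was 0.37, 0.41 and 0.73 on the chromium-restricted arrays and 0.20, 0.61 and 0.43 on the control arrays. All 6 arrays were above the median probe, and the groups overlapped. Region 24 (chr4:61946179-61947766, 8 probes) stood at 0.25, 0.19 and 0.43 against 0.17, 0.42 and 0.17, again above 0 on every array and overlapping. Region 23 (chr4:61868749-61870480, 9 probes) stood at 0.15, 0.09 and -0.04 against 0.13, -0.04 and 0.10, close to the median probe throughout. The edges of the stretch were set by coordinates and not by a value. The nearest regions outside it had means of -1.08 (start 59796291) and -0.05 (start 59817500) on one side and -0.15 (start 62020437) and -1.18 (start 62068517) on the other, while the nearest inside were regions 1 and 2 at 0.46 and -1.24 and regions 23 and 24 at 0.07 and 0.27.

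Both channels departed from the array median in most of the low regions. Averaged over the 24 regions, log2 input signal minus the array median was 1.29, 1.37 and 0.92 on the chromium-restricted arrays and 1.45, 0.91 and 1.18 on the control arrays. The immunoprecipitated signal was -0.97, -0.98 and -1.04 against -0.95, -1.03 and -1.002 on the same scale. Input was thus above the median probe and the immunoprecipitated signal below it on every array, and the input varied more between arrays (SD 0.23 over the 6) than the immunoprecipitated signal (SD 0.036). By region, 17 of the 24 had input more than 1 above the median on the log2 scale (19.5% of all regions), and 16 combined this with an immunoprecipitated signal below the median (1.57% of all regions). Region 3, the lowest, had 2.91-fold the median input and 0.267-fold the median immunoprecipitated signal. Region 20, of intermediate level, had 1.17-fold the median input and 0.560-fold the immunoprecipitated signal. Region 22, low at -2.24, had 1.31-fold the median input and 0.248-fold the immunoprecipitated signal. Region 23 was bright in both channels, at 2.01-fold and 1.89-fold. The 17 regions with bright input thus included region 23 and not region 22, so they were not the same 17 as those below -2.

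**Figure D2:**
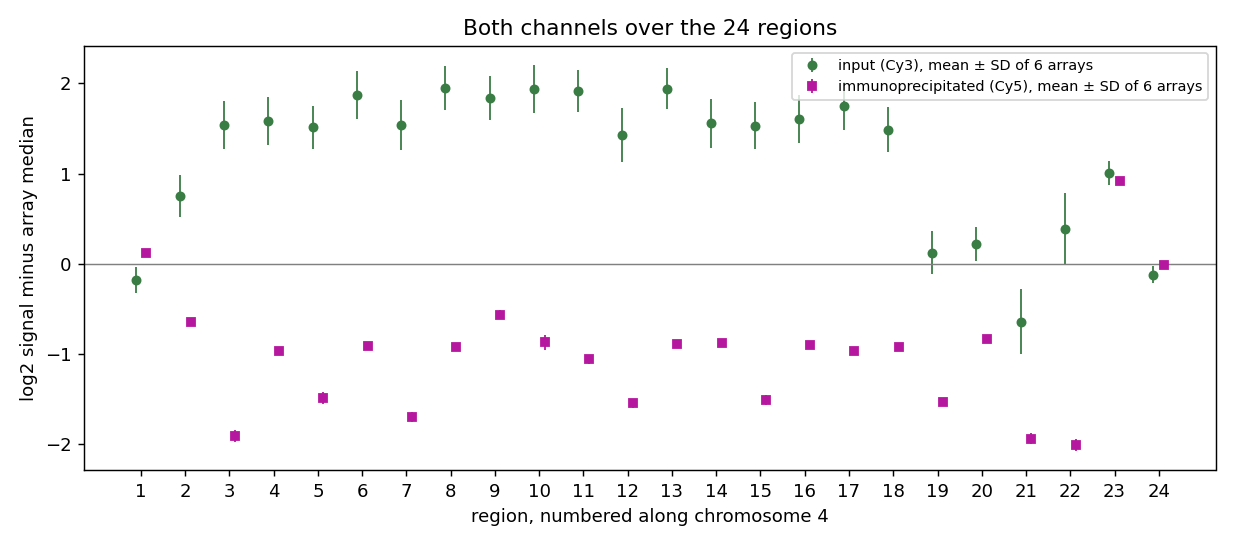
Log2 signal minus the array median (vertical axis) of input (green) and immunoprecipitated DNA (magenta) in the 24 regions in order along chromosome 4 (horizontal axis), as mean and SD over 6 arrays. Input lies above and immunoprecipitated signal below the array median from region 2 to region 18, and both are close together in regions 1, 23 and 24.

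Many probes of the stretch had an immunoprecipitated signal that was not well above background. The immunoprecipitated channel was not well above background on any array for 66 of the 194 probes (34.0%, against 20.9% of all probes), and well above it on all 6 arrays for 114 (58.8%, against 75.8%). The input channel was well above background on all 6 arrays for 171 probes (88.1%, against 73.6%). A probe with input detected on all arrays and immunoprecipitated DNA on none was a common case here, 50 of 194 probes (25.8%) against 4.73% of all probes. The ratio of those 50, with a median of -4.38, carries only a bound. For 5 of the 66 the input was not well above background on any array either, so that their ratio is not even bounded. Among the 108 probes detected in both channels on all arrays (55.7%, against 67.5% of all probes) the median ratio was -0.86, and over all probes of that class on the array it was 0.22.

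Regions 5 to 18 (chr4:60152298-61444455), 14 regions in a row with 113 probes, shared a layout. In each of them the first 3 probes began at 0, at 200 to 207 and at 415 to 422 bases from the region's first probe start, and their ratios followed a fixed course. The first probe had a median ratio of -0.89 over the 14 regions (-2.26 to -0.52). The next had -4.07 (-4.18 to -3.97), with input 4.57-fold and immunoprecipitated signal 0.244-fold the array median. That dim signal was well above background on all 6 arrays in only 3 of the 14 regions, and on some arrays in the other 11. The following probe, some 200 bases further, returned to 0.00 (-0.38 to 0.05), with both channels very bright, 32.9-fold in the input and 29.5-fold in the immunoprecipitated DNA. Only 1.63% of all probes on the array had a brighter input than the median of these. Further on, 11 of the regions had a probe at 605 to 612 bases with a median of -4.10, and 7 had one at 1359 to 1364 bases with a median of -4.42. At neither place was the immunoprecipitated signal well above background on any array. In 5 regions the probe at 1003 to 1021 bases stood between these levels, at -1.72 (-1.77 to -1.56). Over the first 3 probes bright and dim immunoprecipitated signal thus followed each other in the same order in all 14 regions. Probes at a matched place may share their sequence, so the 14 regions are not independent measurements. Probe sequences were not analysed here.

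Arrays differed in opposite ways at the low and the bright place. At the probe 200 to 207 bases in, the mean over the 14 regions was -4.13, -4.38 and -3.79 on the chromium-restricted arrays and -4.40, -3.59 and -4.09 on the control arrays. The lowest were chromium-restricted array 2 and control array 1. At the bright probe 415 to 422 bases in, the values were -0.10, 0.12 and -0.19 against 0.10, -0.12 and -0.02, and the same 2 arrays were now the highest. The groups overlapped at both places. Their means differed by -0.07 at the low probe and by -0.04 at the bright probe, each less than the SD within either group (0.30 and 0.41 at the low probe, 0.16 and 0.11 at the bright probe).

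**Figure D3:**
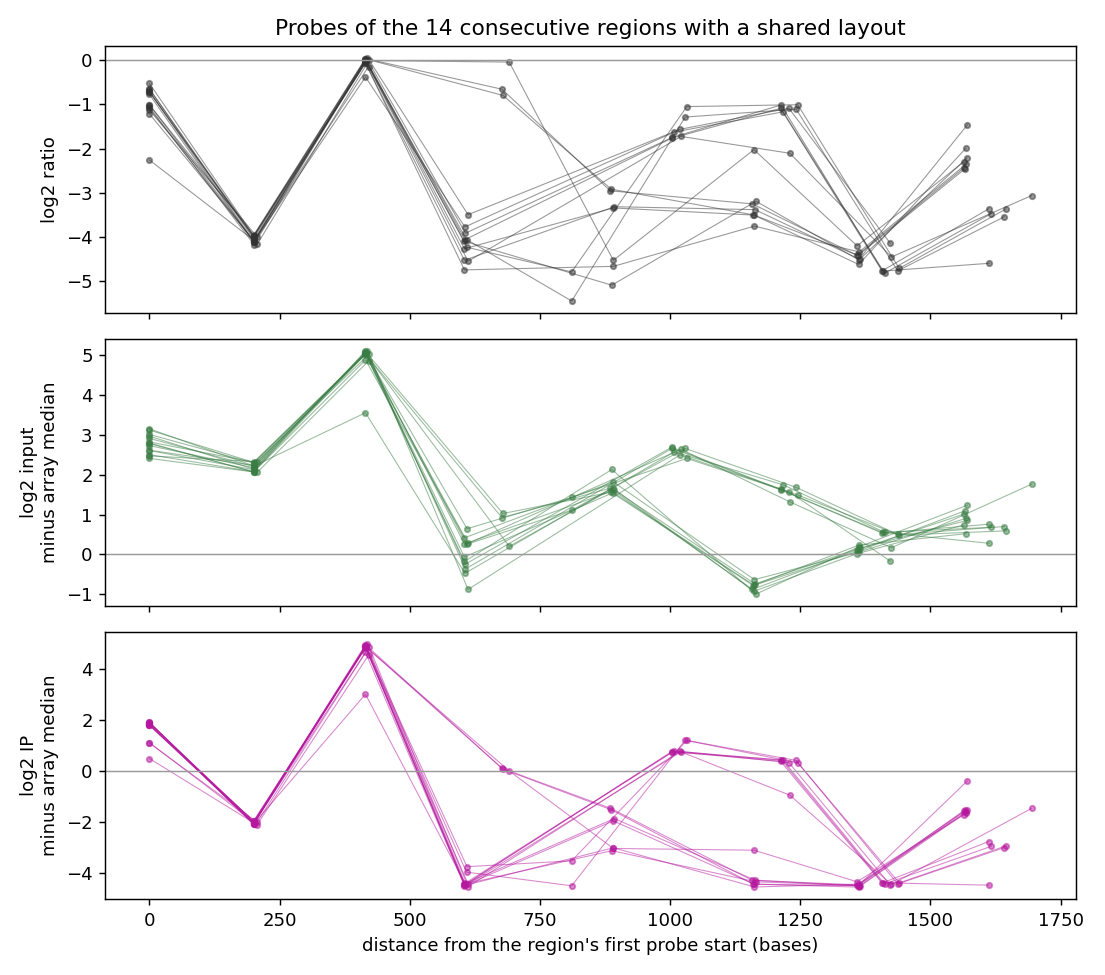
Log2 ratio (top), log2 input (middle) and log2 immunoprecipitated signal (bottom), each signal minus the array median and averaged over 6 arrays, against the distance in bases of a probe from its region's first probe start, with 1 line per region for regions 5 to 18. All 14 lines fall to about -4.07 at the next probe and return to about 0.00 at the bright probe that follows.

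The comparison of the diets asked whether maternal chromium restriction was followed by another methylation signal in the offspring. Averaged over the 24 regions, the log2 ratio was -2.09, -2.24 and -1.76 on the chromium-restricted arrays and -2.31, -1.75 and -2.01 on the control arrays. The lowest and the highest array were both controls, and the groups overlapped. The group means were -2.03 ± 0.25 (SD, n = 3) and -2.02 ± 0.28 (SD, n = 3), a difference of -0.01 that is far smaller than either SD. Within the scans the difference was 0.22, -0.50 and 0.25, so its sign was not the same in all 3. Input and immunoprecipitated signal showed the same lack of separation, with input at 1.20 ± 0.24 (SD, n = 3) against 1.18 ± 0.27 (SD, n = 3) and immunoprecipitated signal at -0.999 ± 0.036 (SD, n = 3) against -0.993 ± 0.043 (SD, n = 3).

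Among the single regions, 0 of the 24 passed an adjusted p of 0.05 in limma with Benjamini-Hochberg adjustment over all 21987 regions, and 0% of all regions did. At an unadjusted p under 0.05 the count was also 0 of 24, against 196 (0.891%) of all regions. In 0 of 24 regions were the groups free of overlap, against 4.43% of all. The chromium-restricted mean was higher in 13 regions and lower in 11, near the 52.6% higher over the whole array. The differences ranged from -0.18 to 0.09 with a median of 0.00, the median of all regions also being 0.00. The median standard error of a difference was 0.18 here and 0.095 over all regions, so the difference was estimated less precisely than in a typical region. That error reflects the spread among samples of a group, in which differences between offspring and between arrays cannot be told apart. The median 95% interval reached 0.42 to either side of the estimate, and the widest 0.56. Differences smaller than that are not excluded by these arrays.

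**Figure D4:**
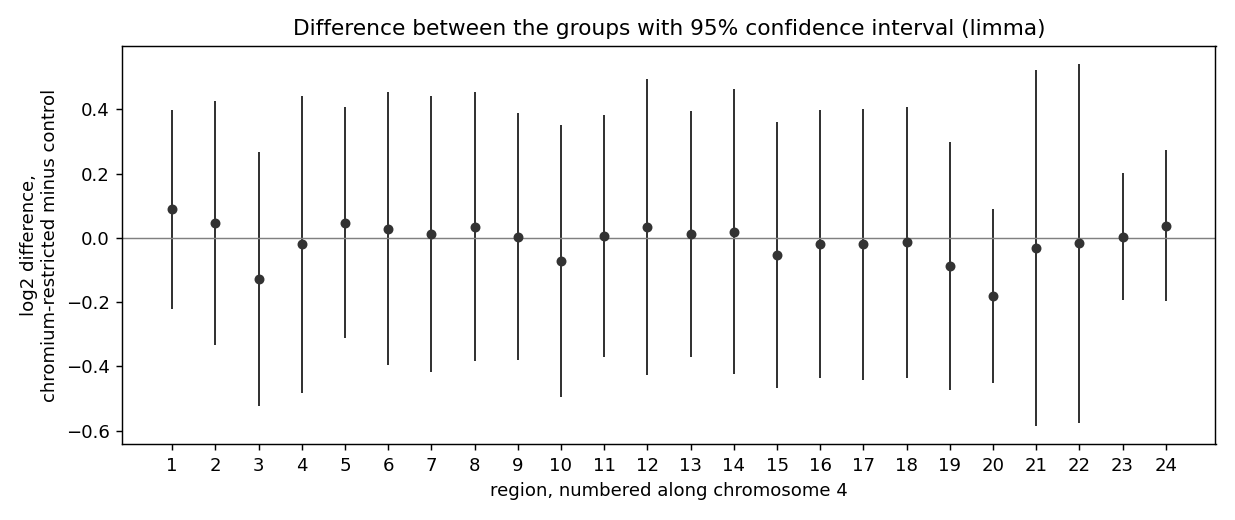
Chromium-restricted minus control log2 ratio (vertical axis) of the 24 regions in order along chromosome 4 (horizontal axis), with limma's 95% confidence interval (3 arrays a group). Every interval includes 0; region 20 has the largest difference, -0.18.

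Region 20 (chr4:61714652-61716377, 9 probes) had the smallest unadjusted p. Its log2 ratio was -1.09, -1.09 and -0.80 on the chromium-restricted arrays and -1.0003, -0.67 and -0.77 on the control arrays. The lowest pair of arrays was chromium-restricted, but the third lay among the controls. The difference was -0.18 (SE 0.12, 95% interval -0.45 to 0.09), with limma's unadjusted p = 0.16 and adjusted p = 0.99996. Within the scans it was -0.09, -0.42 and -0.03. With only its 5 probes well above background in both channels the difference turned to 0.02, and it was -0.014 after normexp and -0.013 by the authors' table. Regions 3, 1 and 19 came next by p. Region 3 differed by -0.13 (SE 0.17) and region 1 by 0.09 (SE 0.14), each less than its standard error. Region 19 (chr4:61495716-61497453, 9 probes) had -1.58, -1.72 and -1.31 against -1.79, -1.16 and -1.40, a difference of -0.09 (SE 0.17) with the groups overlapping. Regions 7 and 15, among the lowest, differed by 0.01 (SE 0.19) and -0.05 (SE 0.18).

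At single probes, 3 of 194 had groups that did not overlap, against 4.27% of all probes, and 2 had an unadjusted p under 0.05, against 1.30%. No probe passed the adjusted threshold, in the stretch or among all 174278, of which 2261 had an unadjusted p under 0.05. These probes are named after their values were seen. The first of the 2 (start 59974262, region 2) stood at 1.80, 1.93 and 1.78 on the chromium-restricted arrays and 1.45, 1.36 and 1.60 on the control arrays. All chromium-restricted values were above all control values, with a difference of 0.37 (SE 0.15), limma's unadjusted p = 0.038 and adjusted p = 0.999997. Its input was well above background on 1 array only. The other (start 61716318, region 20) had -1.80, -1.84 and -0.61 against 0.06, -0.51 and -0.21, a difference of -1.20 (SE 0.35) with unadjusted p = 0.011 and adjusted p = 0.999997. It was not well above background in either channel on any array. The remaining probe without overlap (start 61715081, region 20) was lower in the chromium-restricted group by a difference of -0.34 (SE 0.24), with limma's unadjusted p = 0.19, and control array 2 alone stood far above the others at 0.70.

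Arrays of both diets stood at either extreme. Control array 1 was the lowest of the 6 in 18 of the 24 regions, whereas chromium-restricted array 3 was the highest in 13 and control array 2 in 10. Over all regions the mean was -0.162, -0.211 and -0.144 on the chromium-restricted arrays and -0.224, -0.135 and -0.164 on the control arrays. By the mean, control array 1 was thus the lowest and control array 2 the highest both in the stretch and over all regions. These extremes of the mean are therefore not particular to the stretch. How often each array was lowest or highest among all regions was not counted here. The median input signal of the arrays was 53.1, 83.9 and 46.1 on the chromium-restricted arrays and 98.4, 38.1 and 60.5 on the control arrays (scanner intensity). The array with the brightest input, control array 1, thus had the lowest window mean, and the array with the dimmest, control array 2, the highest. The part of input brightness in the spread was not tested. With the input signal of each array as a covariate the difference between the diets was -0.03.

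Low levels of this size were also found elsewhere on the array. In 3 other windows where low regions gather, 78 of 112 regions on chromosome 7 between 20 and 24 Mb, 26 of 34 on chromosome 2 between 175 and 178 Mb and 14 of 18 on chromosome 4 between 145 and 147 Mb lay below -2. Against these windows the Mup stretch had a median ratio of -2.36 compared with -2.37, -2.25 and -3.09. Its median immunoprecipitated signal was -0.92 on the log2 scale, compared with -1.63, -0.62 and -0.56. Its median input signal was 1.54, compared with 1.07, 1.31 and 2.29. The 17 low regions of the stretch had median input of 1.58 and immunoprecipitated signal of -0.96, and the 328 low regions elsewhere 1.34 and -1.62. These medians are descriptions of regions chosen for their low ratio, and the differences between windows were not tested.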

How the data were processed

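Methylated DNA immunoprecipitation arrays were analysed for 6 samples, 3 per diet. The deposited scanner files, read with Agilent Feature Extraction 11.0.1.1 per the file headers, hold background-subtracted and dye-normalized intensity values for input (green) and immunoprecipitated (red) DNA on mm9 positions. The authors' deposited value table was taken as log2, although its log base, centring and method are not given in the sources used here. It served as an alternative.

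The log2 ratio of red over green was centred on each array's median over 174638 non-control probes, and 360 probes flagged as outliers were then left out, none of them in the Mup stretch. Region means and single probes were fitted with limma 3.58.1 in R 4.3.3, chromium-restricted minus control, with Benjamini-Hochberg adjustment over the whole array. The fit was also run on simulated data with independent noise, which lack shifts shared by the regions of an array. Its outcome is not given here. Normexp (offset 50) used spot median signals, since the files used here have no mean signal column. Promoters were compared by global alignment with free end gaps in Biopython 1.88, and tables and figures were made with Python 3.11.15, pandas 2.3.3 and matplotlib 3.10.9, and with the R package data.table in version 1.17.8.

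Regions in full detail were the 3 lowest, the 3 highest and the 4 with the smallest unadjusted p, besides the nearest regions at each edge and the 3 regions elsewhere with the most similar values. The part of that rule for regions paired with a named Mup gene, and the marker lists of hepatocytes, adipocytes, Mup regulators and other lipocalins, could not be applied, because probes are not paired with genes in the files. The alternatives were normexp, the authors' table, no centring, flagged probes kept, only probes well above background, the replicate block, the input covariate, each array left out, the median over probes, a gap of 500 bp and at least 5 probes. Members, lists and tests were chosen with earlier results of these data known.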

Additional observations from a re-analysis of the deposited data

How the results depend on the processing

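Over the alternatives the count of regions and of probes past an adjusted p of 0.05 was 0 each time. The difference of the window means was -0.03 to -0.0022 in those that keep all arrays and -0.16 to 0.13 with 1 array left out. The window's level of -2.03 moved to -0.94 with normexp, -1.54 in the authors' table and -1.02 with only probes well above background. The 17 regions below -2 became 0, 6 and 1 in that order. The share of all regions below -2 fell as well, from 1.57% to 0.164%, 0.810% and 0.363%. With 1 array left out the level was -2.08 to -1.97 and the count 17.

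Single differences, none of which passed the threshold, turned sign as follows. Region 7 (0.01) gave -0.012 with normexp, -0.056 in the authors' table, -0.013 with the input covariate and -0.047 by the median over probes. With only probes well above background region 15 gave 0.0014 and region 20 gave 0.021. With 1 array left out region 1 ranged from -0.027 to 0.19, region 3 from -0.27 to 0.040, region 7 from -0.16 to 0.19, region 15 from -0.22 to 0.14, region 19 from -0.26 to 0.060, region 23 from -0.049 to 0.058 and region 24 from -0.032 to 0.12. Region 20 ranged from -0.28 to -0.11, but came to -0.014 with normexp and -0.013 in the authors' table. The cause was not tested.

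Same-numbered arrays shared a scan. Over all regions of the array, their deviations from the group means had correlations of 0.15, -0.59 and 0.20 for replicates 1, 2 and 3. The arrays numbered 2 thus tended to deviate in opposite directions. The fit with the replicate block left the window difference at -0.01 and called 0 regions and 0 probes. Dim immunoprecipitated signal limits the level, since it was not well above background on any array for 66 of 194 probes.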

Other observations

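The regions elsewhere whose 6 values lay nearest to the mean profile of the Mup stretch were on other chromosomes. The nearest (chrY:2386220-2387737, 6 probes) had a log2 ratio of -2.04, -2.21 and -1.81 on the chromium-restricted arrays and -2.29, -1.71 and -1.99 on the control arrays, each in replicate order, a root mean square distance of 0.038 from the Mup mean. The next (chr2:175867137-175868641, 7 probes) had -2.10, -2.23 and -1.76 against -2.33, -1.82 and -2.06, at a distance of 0.040. The last of the 3 (chr7:24059816-24061409, 8 probes) had -2.001, -2.24 and -1.72 against -2.30, -1.71 and -1.96, at a distance of 0.049. In each of them control array 1 was the lowest array, as it was in the Mup mean. Since they were chosen for closeness to that mean, this is no separate likeness. These regions share the 6 arrays and their input signal with the Mup stretch, and the likeness, measured over 6 arrays, is a description.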
